A study of Mus musculus with 7 samples.

Results

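The mouse mitochondrial genome is a small circular DNA that encodes 37 RNAs, and all 37 of its gene rows are described here, out of 49585 gene rows in the deposited tables. The members were taken by chromosome alone: every row placed on the mitochondrial chromosome, MT, was kept, whatever its value. They are 13 mRNAs, 2 ribosomal RNAs (rRNAs) and 22 transfer RNAs (tRNAs). By the transcribed strand, 28 are heavy-strand transcripts, taken here as genes on the plus strand of the reference, and 9 are light-strand transcripts, taken as genes on its minus strand. The heavy-strand transcripts are 12 mRNAs, both rRNAs and 14 tRNAs, and the light-strand ones are the mRNA mt-Nd6 and 8 tRNAs.

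The libraries came from MS-1, an established mouse endothelial cell line, grown in DMEM. One group of 4 libraries came from cells overexpressing lipoprotein lipase, LPL, which cuts triglyceride of blood lipoproteins into fatty acids, and the other group of 3 came from control cells with the genotype label WT. The labels give neither the construct nor its means of delivery, no empty-vector control is among the libraries, and nothing says that replicates were separate cultures, so p-values measure the spread between these libraries, which may be technical. A stranded total-RNA kit was used, and the number of reads in sense orientation was 24328418 to 29210847 per LPL library and 26514501 to 28104402 per control library. Of all oriented reads, 97.0 to 97.1% were in the sense orientation in every library.

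The targeted gene, Lpl, averaged 440 ± 13.1 CPM (sense reads per 1000000 after scaling between libraries) in LPL libraries and 0.101 ± 0.112 CPM in control libraries (SD, n = 4 and 3), so each library matched its label. The 8 endothelial markers were all counted, and their summed level was 4756 to 4922 CPM in LPL libraries, against 5747 to 5853 CPM in control libraries, with 6 of 8 lower at an edgeR adjusted p under 0.05. All 10 pigment-cell markers were higher in LPL libraries, with summed levels of 1596 to 1689 CPM in LPL libraries and 18.1 to 19.2 CPM in control libraries, and 6 of the 10 were at 0 in all control libraries. Of 4 macrophage and blood markers only Cd68 was above the filter, at 94.1 to 103 CPM in LPL libraries and 71.2 to 76.7 CPM in control libraries. Markers of muscle summed to 3.53 to 4.55 CPM in LPL libraries and 5.47 to 6.23 CPM in control libraries. Most of this was Tnnt2, called lower, at 3.45 to 4.50 CPM in LPL libraries and 5.44 to 6.12 CPM in control libraries. Cidea, Epcam, Cpa1, Adgre1 and Hba-a1 were at 0 in every library. Ucp1, Krt8, Prss2 and Ptprc were counted in some or all libraries but stayed below the filter, at no more than 0.253 CPM. The pigment genes move with the LPL group in every comparison given here, and their part in the results was not tested. In such bulk libraries, fewer cells of a type and less RNA per cell cannot be told apart.

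Mitochondrial DNA is transcribed from both strands as long RNAs by the polymerase POLRMT with the packaging protein TFAM. The tRNAs lie between the other genes like punctuation, and cutting them out at both ends frees the mRNAs and rRNAs, most of which then receive short poly(A) tails. Nearly all stable RNAs come from the heavy strand. The light-strand RNA carries mt-Nd6 and several tRNAs, and most of the rest of it lies antisense to heavy-strand genes and is normally degraded. The mRNAs encode subunits of respiratory complexes I, III and IV and of the ATP synthase, and the rRNAs build the mitochondrial ribosome.

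Before any level is compared, the members without reads are set beside the sequence that members share with nuclear copies. The part of shared sequence in the 0 counts was not tested. In all 7 libraries, 6 of the 13 mRNAs held 0 sense reads, namely mt-Co2, mt-Co3, mt-Atp6, mt-Atp8, mt-Nd3 and mt-Nd4l. They encode subunits of cytochrome oxidase, of ATP synthase and of complex I. Together with 5 tRNAs (mt-Ts1, mt-Td, mt-Tk, mt-Tg and mt-Tr) they are the 11 members that lie wholly inside MT:6390-11042, and these 11 held 0 sense reads in total. The tRNAs mt-Tf, mt-Tv, mt-Th, mt-Ts2 and mt-Tl2 lie outside that stretch and also held 0 reads, in either orientation. That stretch matches a run of 7 annotated pseudogenes on the minus strand of chromosome 1, a nuclear copy of mitochondrial DNA, of which 5 are identical to the mitochondrial gene over their aligned length. The first bases of mt-Nd3 and of its copy Gm28438 are printed to show how little separates the pair. Both read 5′ to 3′ from the GENCODE vM21 transcripts of the mm10 build, at MT:9459-9518 on the plus strand and 1:24613060-24613119 on the minus strand, with the differing base in capitals.
mt-Nd3: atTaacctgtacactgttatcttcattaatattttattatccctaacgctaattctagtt
Gm28438: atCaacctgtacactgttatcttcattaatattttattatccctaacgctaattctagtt

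The substitution from the mitochondrial gene to the copy is T3C, counted from the first base of the gene, and it was the only difference over 345 aligned bases. Of all 75-base windows of a gene, 99.5% of those in mt-Co2, 99.5% in mt-Atp6, 99.9% in mt-Co3, 97.8% in mt-Nd3 and 98.7% in mt-Nd4l were found in annotated nuclear copies. The share was 61.5% for mt-Nd4, 39.8% for mt-Co1, 5.71% for mt-Nd2 and 1.66% for mt-Nd5. It was 0 for mt-Nd1, mt-Nd6, mt-Cytb and both rRNAs. For mt-Atp8 no annotated copy was found, but the gene lies inside the stretch, between the copies of mt-Co2 and mt-Atp6. The reads were not credited to the copies either, since the 7 pseudogenes together held 7 to 13 sense reads per library. How reads that map to several places were treated is not given in the sources used here, so the 6 mRNAs listed at 0 are not evidence of absent RNA, and the levels per length of mt-Nd4 and mt-Co1 are not comparable with those of genes without a copy.

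**Figure D1:**
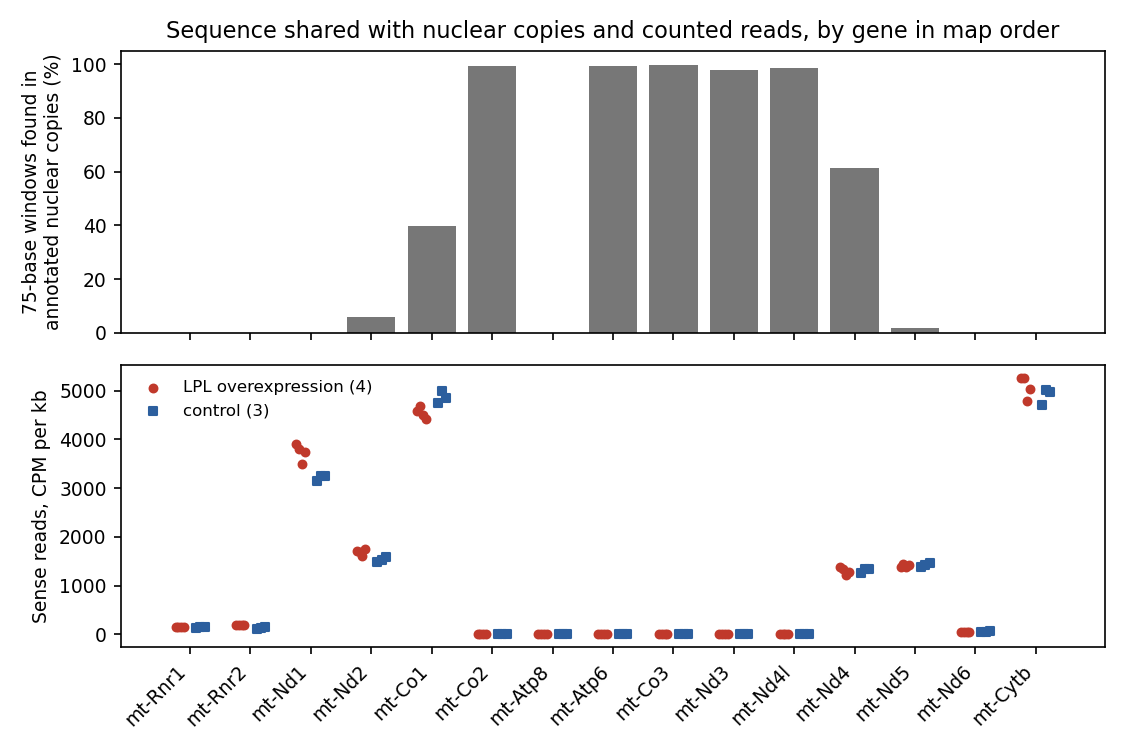
Percent of 75-base windows of each mitochondrial mRNA and rRNA found in annotated nuclear copies (upper panel, bars) and sense reads in CPM per kb in each library (lower panel; circles, 4 LPL libraries; squares, 3 control libraries), with genes in map order. The 5 genes with 97.8 to 99.9% of windows shared, and mt-Atp8 inside the same stretch, sit at 0 in all 7 libraries, while mt-Co1 and mt-Nd4 with partial copies do not.

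Of the remaining members, 7 mRNAs and both rRNAs had at least 100 sense reads in every library. No tRNA did: 12 of the 22 tRNAs held 0 sense reads in every library, and the highest total over all 7 libraries was 142. In all, 11 of the 37 members passed the filter on low counts, 7 mRNAs, 2 rRNAs and 2 tRNAs. Each was tested with edgeR's quasi-likelihood test over all 13639 genes that passed, and a member is called when its Benjamini-Hochberg adjusted p was under 0.05. Over all tested genes 43.2% were called, 21.9% higher and 21.3% lower with LPL, and in 44.6% the groups did not overlap (LPL above in 22.8% and below in 21.8%). Of the 11 tested members 4 were called higher and 1 lower, and in 6 the groups did not overlap (LPL above in 5), so 5 of 11 called stands near the 43.2% called over all genes. The other 6 members were not called. The median log2 fold change of the tested members was 0.06, against 0.00 over all genes.

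Reads counted on the mitochondrial genome differed little in total. The shares below hold nothing of the mRNAs at 0 in every library, nor of any rRNA removed before sequencing. Mitochondrial genes took 2.33 ± 0.0670% of sense reads in LPL libraries and 2.22 ± 0.0541% in control libraries (SD, n = 4 and 3). The ranges were 2.24 to 2.39% in LPL libraries and 2.16 to 2.26% in control libraries, and they overlapped. The difference had a two-sided exact permutation p of 0.114 over the 35 ways to split the libraries, or 0.229 after adjustment over the 8 shares tested. The smallest p this design allows is 0.0286. The classes within that total did not move alike: rRNA took 1.83 to 1.99% of mitochondrial sense reads in LPL libraries, against 1.44 to 1.58% in control libraries. All 4 LPL libraries lay above all 3 control libraries, which gives the smallest possible exact permutation p of 0.0286 and an adjusted p of 0.0762. Counted mRNAs took most of the rest, 98.0 to 98.2% in LPL libraries and 98.4 to 98.6% in control libraries, and tRNA genes took 0.0101 ± 0.00101% in LPL libraries and 0.00995 ± 0.00359% in control libraries (SD, n = 4 and 3).

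The 2 rRNA genes lie near the start of the heavy-strand map, after mt-Tf and with mt-Tv between them. mt-Rnr2, the 16S RNA of the large ribosomal subunit (MT:1094-2675, plus strand), rose in LPL libraries. It had 285, 288, 295 and 290 CPM in the LPL libraries, against 185, 199 and 218 CPM in the control libraries. The groups were far apart relative to their spread, 289 ± 4.06 CPM with LPL and 201 ± 16.8 CPM in controls (SD, n = 4 and 3), a 1.44-fold difference (log2 fold change 0.53, SE 0.04, edgeR adjusted p 5.7e-07). mt-Rnr1, the 12S RNA of the small subunit (MT:70-1024, plus strand), had 144, 146, 146 and 144 CPM in LPL libraries, against 130, 143 and 143 CPM in control libraries. All 4 LPL libraries lay above the controls, but the lowest of them exceeded the highest control by less than 1 CPM, and the log2 fold change of 0.07 (SE 0.03) missed the threshold at an edgeR adjusted p of 0.0535. It passed under 8 other settings, among them leaving out LPL replicate 4, control replicate 2 or control replicate 3 (edgeR adjusted p 0.0317, 0.0277 and 0.018).

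The ratio of the rRNAs within a library, noticed after the values were seen and so given without a test, was 1.97, 1.98, 2.01 and 2.01 mt-Rnr2 reads per mt-Rnr1 read in LPL libraries, against 1.43, 1.39 and 1.53 in control libraries. Per length, the rRNAs stood far below most mRNAs: mt-Rnr2 had 183 ± 2.57 CPM per kb in LPL libraries and 127 ± 10.6 CPM per kb in control libraries (SD, n = 4 and 3). In total RNA these rRNAs are normally the most abundant mitochondrial transcripts, and library kits of this family can include removal of rRNA. Whether and how rRNA was removed here is not stated, so these reads may be a remainder, and the part of removal in the mt-Rnr2 difference was not tested. The 354 nuclear gene rows of type rRNA together held 1.52 to 1.78 reads per 1000000 sense reads in LPL libraries and 1.43 to 2.01 in control libraries, ranges that overlap. So few reads on other genes cannot show how much mitochondrial rRNA was removed in either group.

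**Figure D2:**
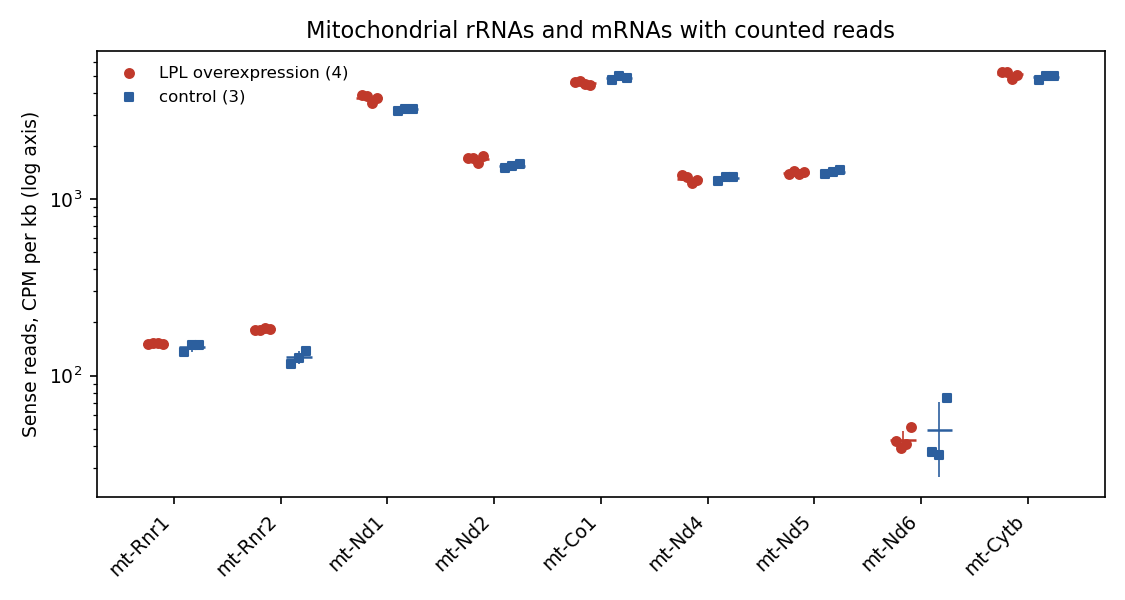
Sense reads in CPM per kb (log axis) for the 2 rRNAs and the 7 mRNAs with counted reads, in map order; circles are the 4 LPL libraries, squares the 3 control libraries, and bars the mean and SD. The groups do not overlap at mt-Rnr1, mt-Rnr2, mt-Nd1 and mt-Nd2, with LPL above, nor at mt-Co1, with LPL below. The gap is narrow at mt-Rnr1. mt-Nd6 lies below all the other genes, with 1 control library apart.

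Between mt-Rnr2 and mt-Nd1 lies the gene of tRNA-Leu, mt-Tl1, whose mammalian counterpart holds the binding site of the transcription terminator MTERF1. It is printed because the genes on its 2 sides changed to different extents, and any part of termination in this was not tested. The 2 rRNAs, which lie on the same side of it, also differed from each other, with log2 fold changes of 0.07 and 0.53. The sequence is from GENCODE vM21 (mm10, MT:2676-2750, plus strand), with the anticodon in capitals.
mt-Tl1: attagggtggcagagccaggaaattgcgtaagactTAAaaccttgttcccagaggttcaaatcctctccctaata

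Directly downstream of it, mt-Nd1, a core subunit of complex I (MT:2751-3707, plus strand), also rose, by less than mt-Rnr2. Its levels were 3731, 3651, 3346 and 3581 CPM in LPL libraries, against 3016, 3112 and 3116 CPM in control libraries. The lowest LPL library lay above the highest control, and the means were 3577 ± 166 CPM with LPL and 3081 ± 57.0 CPM in controls (SD, n = 4 and 3). The log2 fold change was 0.22 (SE 0.03, edgeR adjusted p 2e-08). mt-Nd2, another complex I subunit (MT:3914-4951, plus strand), had 1768, 1762, 1671 and 1809 CPM in LPL libraries, against 1549, 1589 and 1642 CPM in control libraries. These groups did not overlap either, with a log2 fold change of 0.14 (SE 0.03, edgeR adjusted p 2.1e-05).

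mt-Co1, the catalytic subunit of cytochrome oxidase (MT:5328-6872, plus strand), was the only counted mRNA called lower. It had 7079, 7236, 6948 and 6828 CPM in LPL libraries, against 7327, 7728 and 7499 CPM in control libraries. Every LPL library was below every control, but the difference was small, a log2 fold change of -0.10 (SE 0.03, edgeR adjusted p 0.0018), and limma on the deposited TPM values did not call it (log2 fold change -0.07, adjusted p 0.111). As a description chosen after the values were seen, there were 0.481 to 0.527 mt-Nd1 reads per mt-Co1 read in LPL libraries and 0.403 to 0.416 in control libraries. This ratio is independent of the size of the mitochondrial pool. When counts were scaled to the summed mitochondrial mRNA reads of each library, mt-Nd1 and mt-Nd2 were still called higher (log2 fold changes 0.19 and 0.12) and mt-Co1 lower (-0.12).

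The other 4 counted mRNAs were not called in sense orientation. mt-Cytb, the cytochrome b of complex III, averaged 5821 ± 252 CPM in LPL libraries and 5598 ± 190 CPM in control libraries (SD, n = 4 and 3), a log2 fold change of 0.06 (edgeR adjusted p 0.116); it was called without LPL replicate 3 or 4 (edgeR adjusted p 0.0227 and 0.0443). The complex I subunit mt-Nd4 averaged 1799 ± 90.8 CPM in LPL libraries and 1810 ± 59.3 CPM in control libraries (SD, n = 4 and 3), a log2 fold change of -0.01 whose sign depended on the setting. Likewise mt-Nd5 averaged 2560 ± 46.8 CPM in LPL libraries and 2592 ± 75.5 CPM in control libraries (SD, n = 4 and 3), a log2 fold change of -0.02 whose sign turned without control replicate 3. Per length and leaving out the genes with long nuclear copies, the order in LPL libraries was mt-Cytb at 5088 ± 220 CPM per kb, mt-Nd1 at 3738 ± 173, mt-Nd2 at 1689 ± 56.0 and mt-Nd5 at 1403 ± 25.6 (SD, n = 4). It was the same in control libraries, at 4893 ± 166, 3220 ± 59.6, 1535 ± 44.7 and 1421 ± 41.4 CPM per kb (SD, n = 3).

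**Figure D3:**
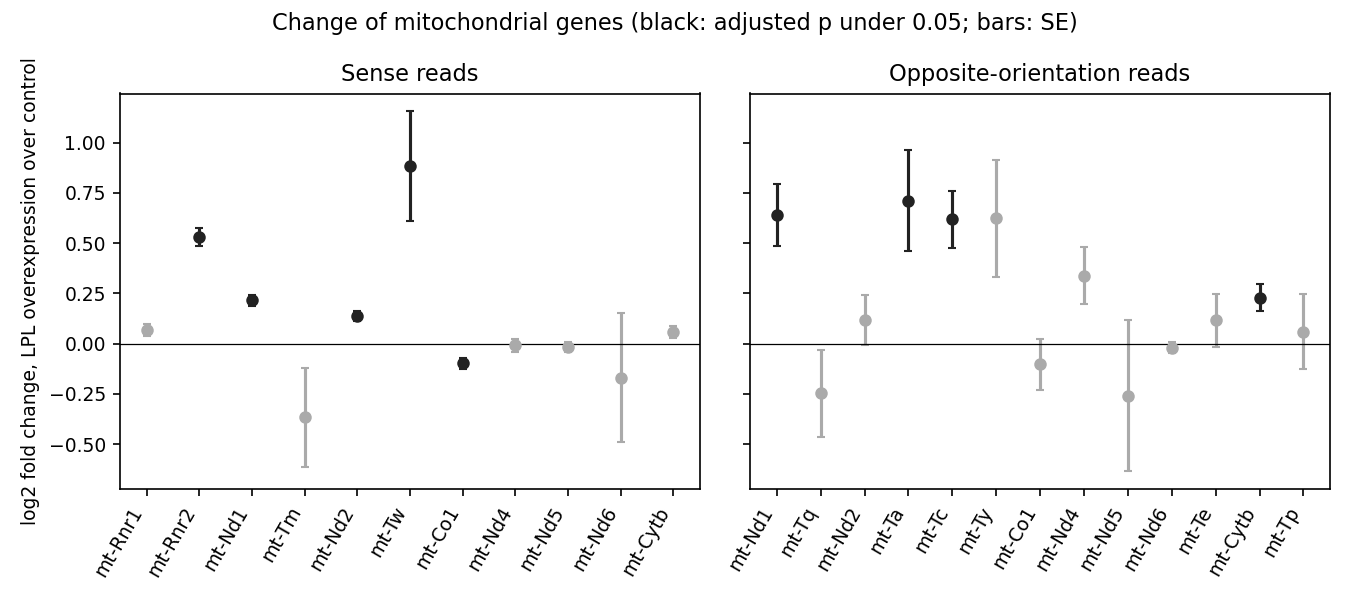
Log2 fold change of LPL overexpression over control for the 11 members tested in sense reads (left) and the 13 tested in reads of the opposite orientation (right), with SE bars from edgeR; black points have an adjusted p under 0.05 and grey ones do not. mt-Rnr2 and mt-Tw stand highest among the called sense values, and mt-Co1 is the only called value below 0.

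mt-Nd6, the only mRNA of the light strand (MT:13552-14070, minus strand), encodes a further complex I subunit. It had 545, 593, 537 and 736 reads in the LPL libraries, against 518, 507 and 1010 in the control libraries. Control replicate 3 stood at nearly double the other 2 controls and above all LPL libraries. The levels were 22.5 ± 2.78 CPM with LPL and 25.4 ± 11.5 CPM in controls (SD, n = 4 and 3), a log2 fold change of -0.17 (SE 0.32, edgeR adjusted p 0.727). Without control replicate 3 the log2 fold change was 0.27, with an edgeR adjusted p of 0.032, so the direction and the call both rest on that library. Per length, mt-Nd6 was at 43.3 ± 5.36 CPM per kb in LPL libraries and 49.0 ± 22.2 CPM per kb in control libraries (SD, n = 4 and 3), below every counted heavy-strand mRNA and both rRNAs.

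At mt-Nd6 the strands can be set against each other at one locus. The gene ends inside mt-Nd5, which runs the other way, and the pair share 14 bases at their 3′ ends. The last 50 bases of each are printed to show this overlap, from GENCODE vM21 (mm10), at MT:13516-13565 on the plus strand and MT:13552-13601 on the minus strand, with the shared bases in capitals.
mt-Nd5 3′ end: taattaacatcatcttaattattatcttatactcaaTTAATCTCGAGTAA
mt-Nd6 3′ end: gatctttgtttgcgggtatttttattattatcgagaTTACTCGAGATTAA

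Reads of the opposite orientation over mt-Nd6 come from the heavy strand. They reached 690, 694, 625 and 669 CPM in LPL libraries, against 654, 661 and 721 CPM in control libraries, which overlap (log2 fold change -0.02, edgeR adjusted p 0.727). There were thus 25.3 to 34.6 heavy-strand reads per light-strand read at this locus in LPL libraries and 18.6 to 36.0 in control libraries, the lowest again in control replicate 3. Per base, heavy-strand reads over mt-Nd6 were 0.919 ± 0.0393 of those over mt-Nd5 in LPL libraries and 0.920 ± 0.0261 in control libraries (SD, n = 4 and 3). The heavy-strand coverage thus went on beyond the annotated end of mt-Nd5 at nearly the same density in both groups.

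The rest of the light-strand RNA was read from opposite-orientation reads over heavy-strand genes. In such reads over all genes, 3787 genes passed the filter, 4.99% were called higher and 8.5% lower with LPL (13.5% in all), and in 20.3% the groups did not overlap (LPL above in 7.79% and below in 12.5%). Of the 37 members 13 passed, and 4 were called, all higher and with LPL above: mt-Nd1, mt-Cytb, mt-Tc and mt-Ta. At mt-Nd1 and mt-Cytb, these are reads antisense to heavy-strand mRNAs. Over mt-Nd1 there were 75, 80, 75 and 60 antisense reads in LPL libraries, against 44, 48 and 48 in control libraries, a log2 fold change of 0.64 (SE 0.15, edgeR adjusted p 0.00055). The groups did not overlap, and the same held for mt-Cytb, with 12.9 to 14.5 CPM in LPL libraries and 11.0 to 12.1 CPM in control libraries (log2 fold change 0.23, SE 0.07, edgeR adjusted p 0.0079). The mt-Cytb call was lost with DESeq2 (adjusted p 0.0543) and with edgeR when LPL replicate 3, control replicate 1 or control replicate 2 was left out (0.0617, 0.0726 and 0.0511).

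A stranded kit leaves some reads in the wrong orientation, and the sense level of these genes is high. Over 1652 nuclear genes that have at least 1000 sense reads in every library and no neighbour within 1000 bases, the opposite reads were 0.0569% of sense reads at the median, with 0.0229% and 0.234% at the 10th and 90th percentiles. mt-Nd1 had 0.0762 ± 0.0122% in LPL libraries and 0.0563 ± 0.00257% in control libraries (SD, n = 4 and 3), close to that median, and mt-Co1 had 0.0475 ± 0.00600% with LPL and 0.0474 ± 0.0105% in controls, below it. mt-Cytb had 0.231 ± 0.0222% in LPL libraries and 0.204 ± 0.00922% in control libraries, both under the 90th percentile, and mt-Nd2, at 0.238 ± 0.0364% with LPL and 0.240 ± 0.0855% in controls, was just above it (SD, n = 4 and 3). For these 4 genes, light-strand RNA cannot be told apart from misoriented reads, and the mt-Nd1 and mt-Cytb calls are read with that limit. mt-Nd4 and mt-Nd5 stood well above the 90th percentile of nuclear genes, at 1.89 ± 0.185% and 2.11 ± 0.108% in LPL libraries and 1.48 ± 0.287% and 2.47 ± 1.31% in control libraries (SD, n = 4 and 3). Tested as a ratio within each library, antisense over sense, none of 7 genes passed adjustment; the lowest exact permutation p was 0.0571 for mt-Nd1 and mt-Cytb, adjusted 0.2.

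Light-strand reads differed along the strand in control replicate 3. Antisense to mt-Nd5 there were 51.2 to 55.8 CPM in LPL libraries, against 43.5, 44.3 and 106 CPM in control libraries. Antisense to mt-Nd4, the next long gene on the light-strand RNA, there were 30.0 to 35.8 CPM in LPL libraries, against 28.1, 30.7 and 21.2 CPM in control libraries. Control replicate 3 was thus the highest library at mt-Nd6 and mt-Nd5 and the lowest at mt-Nd4. It was also the highest antisense to mt-Nd2 and mt-Co1, at 5.52 and 4.29 CPM, but not antisense to mt-Nd1 or mt-Cytb. At these last 4 genes, misoriented reads cannot be told apart from light-strand RNA. The light-strand share of all mitochondrial reads in control replicate 3 was 0.813%, against 0.479 and 0.485% in the other controls. The share was 0.511 to 0.605% in LPL libraries, with a two-sided exact permutation p of 0.943 over all 7 libraries. Without control replicate 3, an alternative read this way after seeing the data, edgeR called antisense reads higher with LPL at 5 of 6 tested mRNAs. That fit called 185 genes higher and 270 lower in all. The number of genes it tested is not given here, so the 5 calls have no background share of their own. The 4.99% of 3787 genes called higher belongs to the fit of all 7 libraries. The log2 fold changes without control replicate 3 were 0.69 at mt-Nd1, 0.47 at mt-Nd2, 0.20 at mt-Nd4, 0.30 at mt-Nd5 and 0.28 at mt-Cytb, while mt-Co1 had 0.05 (edgeR adjusted p 0.907). At mt-Nd1, mt-Nd2 and mt-Cytb the limit of misoriented reads given above holds here too. The library left out was singled out by its light-strand values, so no conclusion is drawn from the 5 calls. With all 7 libraries, mt-Nd5 had -0.26 (adjusted p 0.779) and mt-Nd4 had 0.34 (adjusted p 0.237), edgeR values again. Antisense mt-Nd4, not called in the main fit, was also called by edgeR without control replicate 2 (0.45, adjusted p 7.56e-11), without LPL replicate 2 (0.40, adjusted p 0.0225) and without a filter on low counts (0.34, adjusted p 0.000141). Each of these runs kept control replicate 3, the lowest library at this gene, without which the fold change was smaller. Whether antisense mt-Nd4 is called thus depends on the setting.

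**Figure D4:**
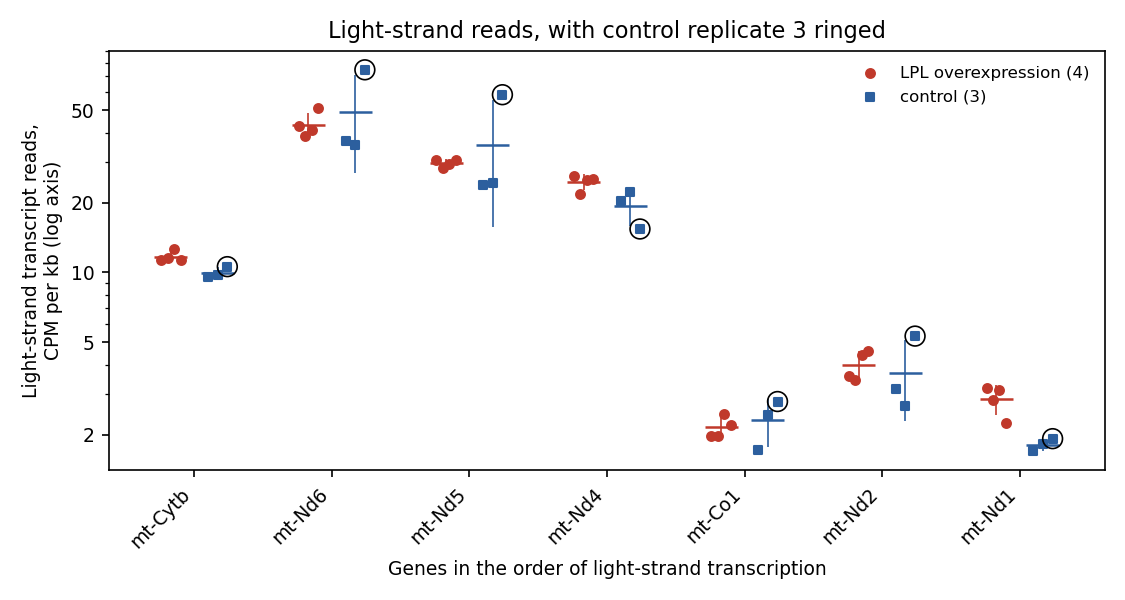
Reads in light-strand orientation, in CPM per kb (log axis), over 7 mRNA genes in the order in which light-strand transcription meets them. They are sense reads for mt-Nd6 and antisense reads for the others. At mt-Nd1, mt-Nd2, mt-Co1 and mt-Cytb, light-strand RNA cannot be told apart from misoriented reads. Levels per length of mt-Nd4 and mt-Co1 are not comparable with those of genes without a nuclear copy. Circles are the 4 LPL libraries, squares the 3 control libraries, bars the mean and SD. The ringed library is control replicate 3, the highest at mt-Nd6, mt-Nd5, mt-Co1 and mt-Nd2 and the lowest at mt-Nd4.

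Mature tRNAs are short and folded, and few of their reads reach such libraries, so reads over tRNA genes may stem from unprocessed precursors or neighbouring RNA. Summed over the 22 genes, tRNA sense reads numbered 58, 62, 57 and 72 in LPL libraries, against 41, 57 and 83 in control libraries, and the groups overlapped. Only mt-Tm and mt-Tw passed the filter. mt-Tw, which carries tryptophan, had 22, 24, 20 and 25 reads in LPL libraries, against 11, 17 and 9 in control libraries. The groups did not overlap, and the log2 fold change was 0.88 (SE 0.27, edgeR adjusted p 0.0067), but the call was lost with DESeq2 (adjusted p 0.0752) and with edgeR without control replicate 3 (adjusted p 0.0526). mt-Tm, which carries methionine, had 17 to 19 reads in LPL libraries and 19 to 28 in control libraries (log2 fold change -0.37, edgeR adjusted p 0.236). Both genes held 0 or 1 reads per library in the counts made without regard to strand, and a light-strand gene lies beside each.

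mt-Tw lies in a cluster of 5 tRNA genes between mt-Nd2 and mt-Co1, in which the other 4 (mt-Ta, mt-Tn, mt-Tc and mt-Ty) are encoded by the light strand. Opposite-orientation reads over those 4 are therefore heavy-strand RNA, as are sense reads of mt-Tw. The light-strand tRNA for cysteine, mt-Tc, held 0 sense reads in every library, but 65, 96, 95 and 93 opposite reads in LPL libraries, against 45, 68 and 58 in control libraries. Scaled to depth the groups did not overlap, at 3.25 ± 0.464 CPM with LPL and 2.12 ± 0.409 CPM in controls (SD, n = 4 and 3; log2 fold change 0.62, SE 0.14, edgeR adjusted p 0.00027). mt-Ta, for alanine, had 26, 29, 22 and 32 opposite reads in LPL libraries, against 14, 24 and 12 in control libraries (log2 fold change 0.71, edgeR adjusted p 0.0363), a call lost with DESeq2 (adjusted p 0.176), with edgeR without a filter on low counts (adjusted p 0.149), and with edgeR when LPL replicate 1 or 4 or control replicate 1 or 3 was left out (adjusted p 0.0793 to 0.227). mt-Ty, for tyrosine, had 20, 8, 14 and 38 opposite reads in LPL libraries, against 12, 15 and 12 in control libraries, and was not called (log2 fold change 0.62, edgeR adjusted p 0.158), except without LPL replicate 2 (0.94, edgeR adjusted p 0.0168). mt-Tn had 0 opposite reads in every library. The 2 members of the cluster with the lowest adjusted p are printed to show the pair as encoded, from GENCODE vM21 (mm10), at MT:4950-5016 on the plus strand and MT:5192-5257 on the minus strand, with the anticodon in capitals.
mt-Tw: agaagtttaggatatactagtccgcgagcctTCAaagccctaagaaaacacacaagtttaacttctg
mt-Tc: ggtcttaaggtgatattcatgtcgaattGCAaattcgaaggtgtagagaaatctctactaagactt

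The heavy-strand reads over mt-Tw, mt-Tc and mt-Ta were thus all called higher with LPL, while the mRNAs on either side of the cluster moved in opposite directions. These genes adjoin, and a read pair may cover more than one of them, so they are not independent measurements. In the counts made without regard to strand, mt-Tw and mt-Ta held 0 reads in every library, while mt-Tc held 45 to 96. The calls of mt-Tw and mt-Ta may therefore rest largely on the same reads. Elsewhere, opposite reads over the light-strand tRNA genes mt-Tq, mt-Te and mt-Tp, which carry glutamine, glutamate and proline, were not called (log2 fold changes -0.25, 0.12 and 0.06). Each of these 3 signs turned when some library was left out.

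The nuclear genes that run mitochondrial gene expression were read as 5 lists of known members. Of 18 genes for transcription, replication and packaging of mitochondrial DNA, 2 were called higher and 0 lower, against 21.9% higher and 21.3% lower over all tested genes. Tfam had 57.4 to 57.8 CPM in LPL libraries and 49.5 to 53.0 CPM in control libraries (log2 fold change 0.17, edgeR adjusted p 0.00012). The other was the mitochondrial topoisomerase Top1mt (0.12, edgeR adjusted p 0.038), whereas the polymerase Polrmt had 30.4 ± 1.13 CPM with LPL and 30.3 ± 1.73 CPM in controls (SD, n = 4 and 3; log2 fold change 0.00). Mterf4, which acts on the large-subunit rRNA with Nsun4, had a log2 fold change of 0.17 (edgeR adjusted p 0.055), and the DNA-binding Ssbp1 had 0.09 (0.061). The terminator gene Mterf1a averaged 2.45 ± 0.402 CPM in LPL libraries and 2.54 ± 0.269 CPM in control libraries (SD, n = 4 and 3).

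Of 19 genes for processing, stability and decay of mitochondrial RNA, 2 were called higher and 4 lower, no larger a share either way than the 21.9% and 21.3% over all genes. The oligoribonuclease Rexo2 rose, at 65.3 to 68.8 CPM in LPL libraries and 52.9 to 54.5 CPM in control libraries (log2 fold change 0.33), and so did the helicase Supv3l1 of the degradation complex (0.14, edgeR adjusted p 0.015). Among those that fell were Hsd17b10, a subunit of the mitochondrial RNase P, with a log2 fold change of -0.15, and Lrpprc, which stabilises mitochondrial mRNAs, at 159 to 166 CPM in LPL libraries and 172 to 176 CPM in control libraries (-0.10). Its partner Slirp had -0.03 and was not called (edgeR adjusted p 0.544).

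Of 22 genes for modification of mitochondrial rRNA and tRNA, 3 were called higher and 3 lower, below the 21.9% and 21.3% over all genes. Trub2, a pseudouridine synthase that acts on mitochondrial RNA, rose (log2 fold change 0.30), as did the tRNA methyltransferase Nsun2 (0.08). The rRNA methyltransferase Nsun4 fell, at 17.8 to 19.0 CPM in LPL libraries and 19.7 to 21.5 CPM in control libraries (-0.16), as did the queuosine enzyme Qtrt1 (-0.16). Of 22 genes that charge mitochondrial tRNAs, 8 were called higher and 1 lower, beside 21.9% higher and 21.3% lower over all genes. Iars2, for isoleucine, rose by a log2 fold change of 0.10, and the amidotransferase subunits Gatb and Gatc rose by 0.30 and 0.15. The medians of these 4 lists were 0.03, 0.04, 0.04 and 0.09 on the log2 scale, against 0.00 over all genes.

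Of 11 coactivators and factors of mitochondrial biogenesis, 10 were tested, 2 were called higher and 2 lower, close to the 21.9% and 21.3% over all genes, and the median was 0.04. Ppargc1a, which encodes the coactivator PGC-1alpha, had 2.39, 2.27, 2.61 and 2.19 CPM in LPL libraries, against 0.333, 0.507 and 0.652 CPM in control libraries. The groups were far apart at low levels, a log2 fold change of 2.24 (SE 0.21, edgeR adjusted p 8.1e-13). Tfeb, a regulator of lysosomal genes, also rose (0.34), while Yy1 and Gabpa, transcription factors of many respiratory genes, fell by 0.14 and 0.09 on the log2 scale. Pigment-cell genes moved with this group of libraries too, as given above.

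**Figure D5:**
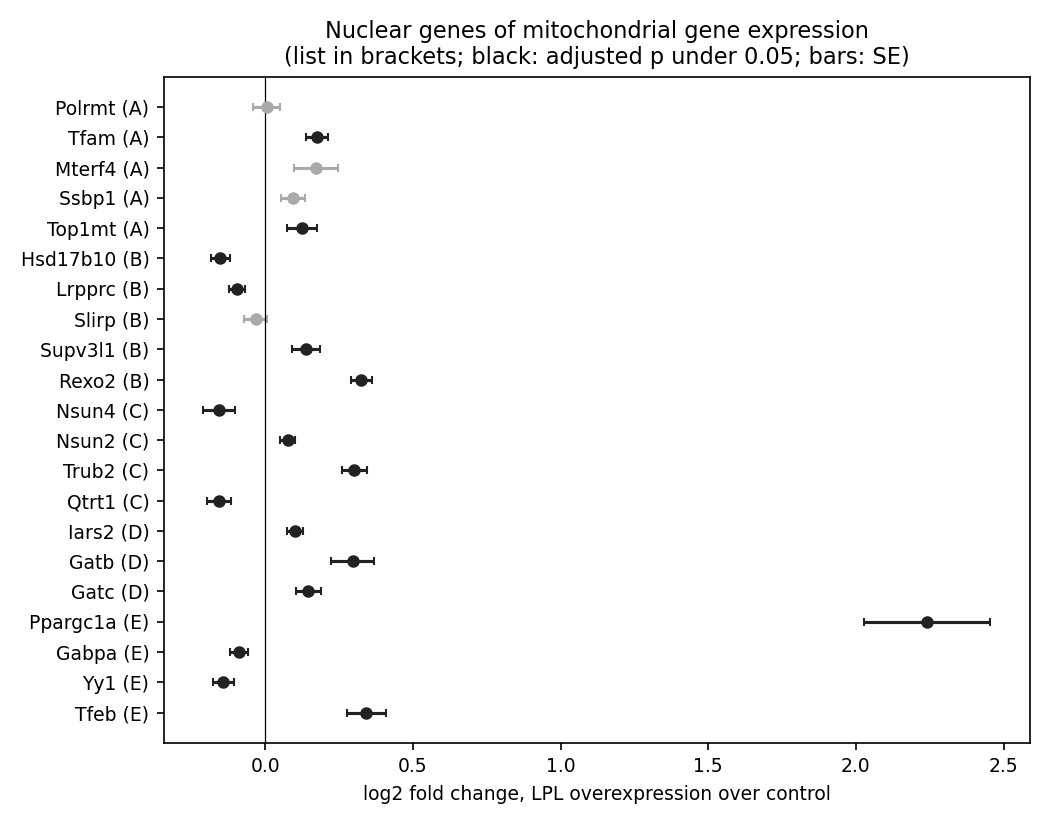
Log2 fold change of LPL overexpression over control (x axis, with SE bars from edgeR) for named nuclear genes; letters give the list (A transcription and replication, B processing and decay, C modification, D tRNA charging, E biogenesis factors). Black points have an adjusted p under 0.05; apart from Ppargc1a at 2.24, the values lie between -0.16 and 0.34.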

How the data were processed

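Per the labels' protocols, RNA was prepared with a column kit and libraries with a stranded total-RNA kit. STAR and the mm10 build are named in the submitters' processing notes; versions, annotation and counting options are not stated there. The deposited tables hold, per gene, read counts in both orientations and for each orientation apart, with TPM and FPKM values by the authors. A second set of TPM columns, scaled by the authors to a subset of genes per the file headers, counts here as a score; neither it nor the deposited FPKM values entered a test.

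Reverse-orientation counts were taken as sense. CPM are counts per 1000000 sense reads after TMM scaling. edgeR 4.0.16 (R 4.3.3; filterByExpr, TMM, robust quasi-likelihood F test, Benjamini-Hochberg over all genes, threshold 0.05) compared 4 LPL with 3 control libraries. Opposite-orientation counts were fitted with the sense library sizes. Shares and ratios within libraries were compared by two-sided exact permutation tests. Alternatives used DESeq2 1.42.0, limma 3.58.1 on log2(TPM + 0.5), other scalings and filters, and single libraries left out. The steps were tested on simulated data. Counts cover counting error only, and no interval for the biology between cultures can be had from them.

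Nuclear copies were sought by matching windows of each member's GENCODE vM21 transcript to transcripts annotated there as pseudogenes. Other nuclear sequence was not searched. All 37 members have the same coordinates in GENCODE vM21. The members and lists were chosen with earlier results of these data known. Named nuclear genes are, per list, the 4 or fewer lowest in adjusted p and the 2 or fewer of largest change among called genes of at least 2 CPM on average, plus Polrmt, Tfam, Lrpprc, Slirp and Ppargc1a; Mterf1a was added after its values were seen, and 1 gene that the rule names is not reported here. The same-numbered replicates carry no pairing in the labels.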

Additional observations from a re-analysis of the deposited data

Results flagged for a closer look

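In 60 values tested for a single LPL library apart from the other 3, a rule that chance meets in about 1 group in 20, 2 were met: Rexo2 at 65.25 CPM in LPL replicate 2 and Nsun4 at 17.79 CPM in LPL replicate 3. In both cases the library kept the direction of its group relative to all controls.

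The nuclear copy of mt-Nd3, Gm28438, lies outside the comparisons of the report. Over it, 17 reads of the opposite orientation were counted in the LPL libraries (3, 2, 8 and 4), against 0, 0 and 0 in the control libraries. Its sense reads numbered 0, 1, 1 and 2 in the LPL libraries and 0 in each control library.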

How the results depend on the processing

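The calls of mt-Rnr2, mt-Nd1 and mt-Nd2 were the same in every alternative run, with log2 fold changes of 0.47 to 0.60, 0.19 to 0.25 and 0.12 to 0.16. Over all genes, 2989 were called higher and 2900 lower, while limma on log2(TPM + 0.5) called 3299 and 2063. In all that follows the cause of a change was not tested. rRNAs called higher numbered 2 in place of 1 with RLE factors, upper-quartile factors, both orientations, the replicate block and limma, and 1 to 2 with single libraries left out. mRNAs and heavy-strand members called lower numbered 0 with limma, in place of 1. tRNAs called higher numbered 0 with DESeq2 and 0 to 1 with libraries left out. Members on the light strand called higher numbered 1 with both orientations and 0 to 1 with libraries left out. The call with both orientations was a tRNA gene, not mt-Nd6 (log2 fold change -0.0177, edgeR adjusted p 0.83). That count mixes the strands: at mt-Tc it held 45 to 96 reads per library, equal to the opposite-orientation reads, which are heavy-strand RNA. The call therefore does not show more light-strand RNA.

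In lists A to E (transcription, processing, modification, tRNA charging, biogenesis), upper-quartile factors called 5 higher in A, 4 in B and 5 in C, and 0 lower in D and 1 in E. DESeq2 called 1 higher in A, 1 in B and 5 in D, and 2 lower in B, 1 in C, 0 in D and 1 in E. limma called 1 lower in each of B, C and E, and without a filter 0 were lower in D. With libraries left out, higher calls ran from 1 to 3 in A, 1 to 3 in B and 2 to 5 in C, and lower calls from 2 to 3 in B, 1 to 3 in C, 0 to 1 in D and 1 to 2 in E. For opposite-orientation reads DESeq2 called 113 genes higher and 198 lower, and 2 mitochondrial genes higher; leaving out libraries gave 2 to 6.

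Values near 0 turned sign. mt-Nd4 was at 0.014 with upper-quartile factors, 0.0001 with both orientations and 0.0177 with limma, and between -0.036 and 0.0209 with libraries left out. mt-Nd5 was at 0.0045 with upper-quartile factors, 0.0092 with limma and between -0.039 and 0.0081 with libraries left out. mt-Nd6 ran from -0.36 to 0.27. In opposite reads with libraries left out, mt-Tq ran from -0.47 to 0.0322, mt-Nd2 from -0.0757 to 0.47, mt-Co1 from -0.28 to 0.0499, mt-Nd5 from -0.48 to 0.30, mt-Nd6 from -0.0458 to 0.0301 (0.0029 with upper-quartile factors), mt-Te from -0.0658 to 0.32 and mt-Tp from -0.0613 to 0.22. Counting both orientations, the tRNA difference was 1.31 reads per 1000000 in place of 0.134, and 0.0047 percentage points of mitochondrial reads in place of 0.000174. With libraries left out these differences turned sign, from -0.227 (without control replicate 1) to 0.59 (without control replicate 3) reads per 1000000 and from -0.00133 to 0.00216 percentage points at the same 2 libraries.

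Over all tested genes, same-numbered replicates did not deviate together from their group means (correlations -0.00963, -0.026 and 0.00961). The labels give no pairing, and these correlations cannot exclude a shared day or preparation. With the replicate block the fit called 2931 genes higher and 2862 lower, left mt-Ta uncalled in opposite reads (adjusted p 0.114), called mt-Rnr1 and mt-Cytb in sense reads (adjusted p 0.047 and 0.0429, edgeR) and put mt-Tp at -0.0618 in opposite reads. Adding the nuclear copies' reads to the mitochondrial reads moved the mitochondrial share difference to 0.105 percentage points, equal to the value without them. Depth limits the tRNA genes most, with at most 142 sense reads each over 7 libraries.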
